A study of Mus musculus with 16 samples.

Results

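The genes described here are the inhibitors of cyclin-dependent kinases (CDKs) and the pocket proteins, 10 genes in all among 21887 protein-coding genes. The data are peaks called near these genes in mouse heart with antibodies against the transcription factors Hoxb13 and Meis1. A peak is a place of enriched signal, and binding by the factor itself was not tested. The genes were chosen by name: Cdkn1a, Cdkn1b, Cdkn1c, Cdkn2a, Cdkn2b, Cdkn2c, Cdkn2d, Rb1, Rbl1 and Rbl2. A peak was assigned to a gene when it overlapped the gene body, extended by 5 kb on either side, by at least 1 bp. The nearest peak within 100 kb was recorded as well. These windows held 28 peaks in the 8 lists, 24 of Hoxb13 and 4 of Meis1.

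CDKs paired with cyclins drive a cell from G1 into S phase. The Cip/Kip inhibitors (p21, p27 and p57, encoded by Cdkn1a, Cdkn1b and Cdkn1c) bind cyclin-CDK complexes broadly, and the INK4 inhibitors (p16, p15, p18 and p19, encoded by Cdkn2a to Cdkn2d) bind Cdk4 and Cdk6. Rb1, Rbl1 and Rbl2 encode the pocket proteins pRb, p107 and p130, which hold E2F factors in check until CDKs phosphorylate them. Mouse cardiomyocytes leave the cell cycle in the first weeks after birth, and Meis1 and Hoxb13 are homeodomain factors studied as regulators of that exit.

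Chromatin immunoprecipitation and sequencing (ChIP-seq) was run on ventricles at postnatal day 15. The Paro/Neo mice had received the aminoglycosides paromomycin and neomycin together, at 150 mg/kg, 2 times a day into the peritoneum for 7 days from postnatal day 7, and the control mice PBS as vehicle. The groups are Hoxb13 Paro/Neo, Hoxb13 control, Meis1 Paro/Neo and Meis1 control, with 2 libraries each; the strain is not given in the labels. The antibodies were raised against Hoxb13 and against Meis1/2, so that peaks of the second may hold sites of Meis2. Chromatin came from whole ventricles, in which all cell types are mixed, and the labels name 2 hearts as biological duplicates, which can mean a pool of 2 hearts or 1 heart per library. The spread given here is therefore between libraries, and may be technical. The samples of Hoxb13 and of Meis1 carry different title styles and separate inputs, so that the antibody and the set of libraries cannot be told apart.

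The lists differed in length. Hoxb13 lists held 821 and 16963 peaks in Paro/Neo replicates 1 and 2, and 5202 and 1121 in control replicates 1 and 2. Meis1 lists held 1541 and 1025 in Paro/Neo and 3529 and 3176 in control. The depth of sequencing is not known, and a gene without a peak therefore has no detection limit. The names of the second-replicate Meis1 lists carry the letter of the other group; groups follow the labels here, and the exchanged assignment is given among the alternatives. Peaks at cell type markers were counted too, to be read beside the shares of all genes. Of all protein-coding genes, 4.2 and 46.5% held a Hoxb13 peak in Paro/Neo replicates 1 and 2, and 24.2 and 5.79% in control. For Meis1 these shares were 4.07 and 2.83% in Paro/Neo, and 8.59 and 8.21% in control. All 7 cardiomyocyte marker genes held a peak in each Hoxb13 library. In the Meis1 libraries, 2 and 3 of them held one in Paro/Neo and 5 and 4 in control. Of 5 fibroblast markers, 0 and 5 held a Hoxb13 peak in Paro/Neo and 2 and 0 in control, and none held a Meis1 peak. Of 5 leukocyte markers, 0 and 1 held a Hoxb13 peak in Paro/Neo and 1 and 1 in control, and none a Meis1 peak. Of 5 endothelial markers, 0 and 5 held a Hoxb13 peak in Paro/Neo and 3 and 0 in control, and 2 held a Meis1 peak in each of the 4 Meis1 libraries. A peak at a marker does not measure its expression, and the part of other cell types in the peaks was not tested.

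Most of what follows turns on the promoters of Cdkn2d (p19Ink4d), Cdkn2c (p18) and Cdkn1b (p27). Shown for each are the 250 bases before a start in the RefSeq promoter table, 5′ to 3′ on the strand of the gene, on GRCm38.p6 (coordinates as in mm10). At Cdkn2d the gene record runs to 21291421, beyond that start, so the capitals of Cdkn2d lie inside the gene record. Capitals mark the bases inside the peak of every library of 1 antibody that called the promoter, which are 4 Hoxb13 libraries for Cdkn2d, 2 Hoxb13 libraries for Cdkn2c and 3 Meis1 libraries for Cdkn1b.
Cdkn2d, chr9:21291210-21291459, minus strand: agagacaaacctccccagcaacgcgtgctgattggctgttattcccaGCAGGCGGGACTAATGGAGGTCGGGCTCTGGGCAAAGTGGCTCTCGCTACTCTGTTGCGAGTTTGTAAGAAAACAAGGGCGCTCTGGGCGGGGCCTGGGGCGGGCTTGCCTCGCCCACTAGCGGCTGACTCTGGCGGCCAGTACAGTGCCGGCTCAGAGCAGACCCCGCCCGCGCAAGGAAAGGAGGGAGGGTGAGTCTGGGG
Cdkn2c, chr4:109666757-109667006, minus strand: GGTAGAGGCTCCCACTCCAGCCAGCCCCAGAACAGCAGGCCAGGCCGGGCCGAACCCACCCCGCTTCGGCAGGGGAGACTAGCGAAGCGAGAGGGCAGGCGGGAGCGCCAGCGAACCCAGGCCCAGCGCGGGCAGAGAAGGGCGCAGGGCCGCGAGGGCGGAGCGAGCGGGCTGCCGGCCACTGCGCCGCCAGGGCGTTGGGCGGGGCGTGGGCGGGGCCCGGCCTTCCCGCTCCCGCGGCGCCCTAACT
Cdkn1b, chr6:134920151-134920400, plus strand: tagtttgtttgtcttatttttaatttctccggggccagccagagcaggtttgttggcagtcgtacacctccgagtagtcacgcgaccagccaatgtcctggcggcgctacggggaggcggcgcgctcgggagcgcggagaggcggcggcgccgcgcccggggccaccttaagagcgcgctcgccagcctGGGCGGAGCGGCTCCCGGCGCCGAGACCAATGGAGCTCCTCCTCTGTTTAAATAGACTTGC
The Hoxb13 peaks covered 203 of the 250 bases at Cdkn2d and all 250 at Cdkn2c, and the shared Meis1 interval covered the last 61 bases before the start of Cdkn1b.

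Hoxb13 peaks lay at 7 of the 10 genes in at least 1 library, where 47.6% of all protein-coding genes held one, and all 7 were called in Paro/Neo replicate 2. Meis1 peaks lay at 2 of the 10, where 11.8% of all genes held one. Hoxb13 peaks in at least 2 libraries lay at 4 genes, Cdkn2d, Rb1, Cdkn1b and Cdkn2c, against 23.6% of all protein-coding genes. The count was 2 without Paro/Neo replicate 2, without control replicate 1, or with each Hoxb13 list reduced to its strongest 821 peaks. Cdkn1b alone held Meis1 peaks in at least 2 libraries, against 6.47% of all genes. Peaks in all 4 Hoxb13 libraries were found at Cdkn2d alone, 1 of 10 genes against 2.83%, and no member had peaks in all 4 Meis1 libraries, where 1.87% of all genes did. Each of these counts moves by 10 percentage points with a single gene, and no test was made of them against the background.

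**Figure D1:**
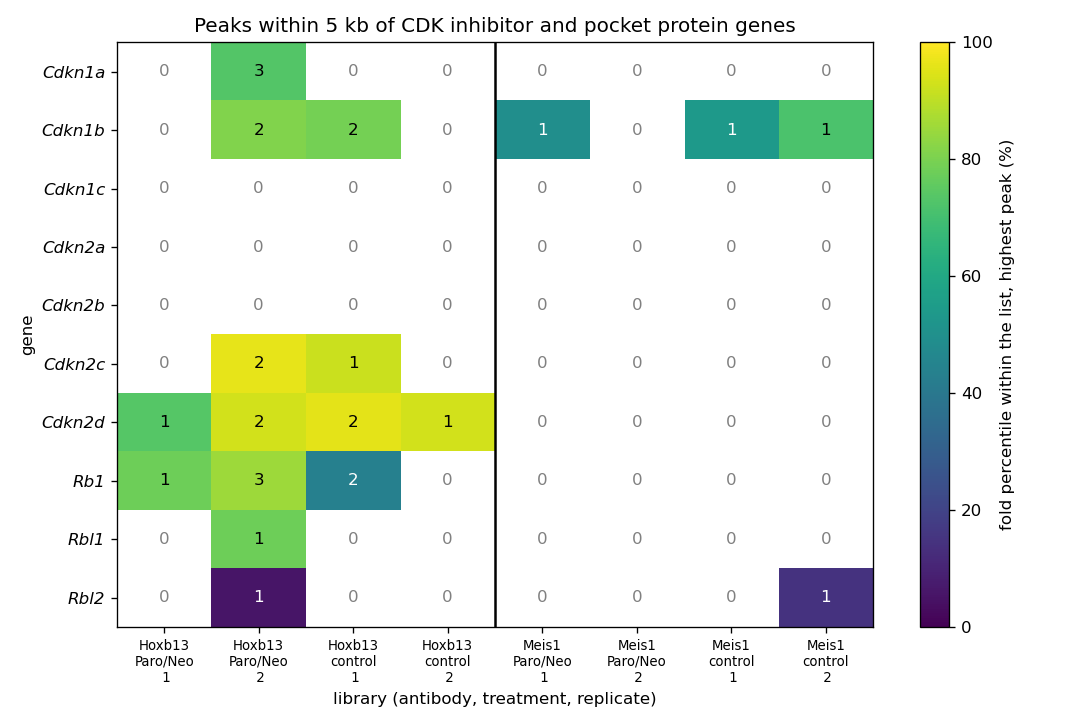
Peaks of each library (columns, by antibody, treatment and replicate) in the window of each gene (rows). Numbers count peaks, and colour gives the percentile of the highest-ranked peak by fold within its own list. Cdkn2d is filled in all 4 Hoxb13 libraries and Cdkn1b in 3 Meis1 libraries, while Cdkn1c, Cdkn2a and Cdkn2b are at 0 throughout.

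Among the Cip/Kip genes, Cdkn1b was the one with peaks of both antibodies. Its gene (chromosome 6, 134920401 to 134925525) held a Meis1 peak across the start in Paro/Neo replicate 1 (134920301 to 134920540, 240 bp), with a fold enrichment over local background of 4.89 and rank 782 of 1541 in its list. Paro/Neo replicate 2 had none, and its nearest Meis1 peak lay 373 kb away. In control, replicate 1 had a peak of 195 bp (134920310 to 134920504, fold 4.84, rank 1628 of 3529) and replicate 2 a peak of 203 bp (134920340 to 134920542, fold 5.65, rank 897 of 3176). By the labels, the peak was called in both control libraries and in 1 of 2 Paro/Neo libraries. With the second Meis1 replicates exchanged, as the list names would have it, calls were 2 of 2 in Paro/Neo and 1 of 2 in control. By the labels again, the peak stood above 49.3% of its list in Paro/Neo replicate 1, and above 53.9 and 71.8% in control replicates 1 and 2. Centres of the 3 peaks lay 6 to 40 bp behind the start. Calls of 1 of 2 against 2 of 2 libraries gave an exact two-sided Fisher p of 1, and 2 against 2 libraries cannot give a p under 0.333.

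Hoxb13 peaks at Cdkn1b covered the same start. In Paro/Neo replicate 2 a peak of 616 bp (134919923 to 134920538, fold 3.55) ranked 3245 of 16963, and in control replicate 1 a peak of 1287 bp (134920019 to 134921305, fold 2.89) ranked 4676 of 5202, near the bottom of its list. Paro/Neo replicate 1 and control replicate 2 had none. All 5 peaks of the 2 antibodies shared 165 bp (134920340 to 134920504). A second Hoxb13 region lay 2.73 kb beyond the upper end of the gene, over a promoter of the noncoding RNA gene Lockd. It was called in Paro/Neo replicate 2 (134928269 to 134928779, fold 2.99, rank 10506 of 16963) and in control replicate 1 (134928257 to 134928843, fold 3.69, rank 1094 of 5202). The Hoxb13 calls at Cdkn1b came from the 2 longest lists, and none was left when every Hoxb13 list was reduced to its strongest 821 peaks.

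Cdkn1a, which encodes p21, a target of p53, held 3 Hoxb13 peaks, all in Paro/Neo replicate 2 (chromosome 17, gene at 29090979 to 29100722). The first (29093575 to 29093748, fold 3.06, rank 9061 of 16963) had its centre at −108 bp from an inner start of the gene. The second was 1962 bp wide (29094536 to 29096497, fold 3.18), the widest peak in any member window, and the third (29099771 to 29101056, fold 3.40) crossed the upper end. The nearest peaks in Paro/Neo replicate 1 and control replicate 1 lay 58.5 and 58.1 kb away, at Srsf3, and that of control replicate 2 lay 289 kb away. Meis1 peaks came no nearer than 151 kb in any library. Cdkn1c (p57, chromosome 7, 143458339 to 143461059) held no peak of either antibody. Its nearest Hoxb13 peaks lay 87.6 kb away in Paro/Neo replicate 2 and 87.7 kb in control replicate 1, within the neighbouring gene Nap1l4, and no Meis1 peak came within 100 kb.

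Among the INK4 genes, Cdkn2d held a Hoxb13 peak in all 4 libraries at a single place, its promoter (chromosome 9, gene at 21288459 to 21291421). Paro/Neo replicate 1 had a peak of 238 bp (21291175 to 21291412, fold 3.92, rank 215 of 821) and Paro/Neo replicate 2 a peak of 564 bp (21291115 to 21291678, fold 4.07, rank 1158 of 16963). Control replicate 1 had a peak of 402 bp (21291156 to 21291557, fold 4.72, rank 216 of 5202) and control replicate 2 a peak of 283 bp (21291184 to 21291466, fold 4.86, rank 77 of 1121). The peak stood above 93.2, 95.8 and 93.1% of its list in Paro/Neo replicate 2 and control replicates 1 and 2, and above 73.8% in Paro/Neo replicate 1. Folds belong to their own lists, so no difference between treatments was taken from them. Peak centres fell between −188 and −84 bp from the start in the RefSeq promoter table, and the 4 peaks shared 229 bp (21291184 to 21291412). The gene record itself runs to 21291421, beyond that start.

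No Meis1 library had a peak in the window of Cdkn2d. The contrast of 4 of 4 Hoxb13 libraries with 0 of 4 Meis1 libraries gave an exact two-sided Fisher p of 0.0286, the smallest that 4 against 4 allow. The adjusted p over all 21887 genes was 1 (Benjamini-Hochberg), and 1.98% of all genes had the same calls. Only calls in 4 of 4 against 0 of 4 libraries reach this p. A second Hoxb13 region of the window lay over a promoter of the neighbour Kri1, 99 bp below the gene in Paro/Neo replicate 2 (21287630 to 21288360, rank 11636 of 16963) and 269 bp below it in control replicate 1 (21288019 to 21288190, rank 3199 of 5202).

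**Figure D2:**
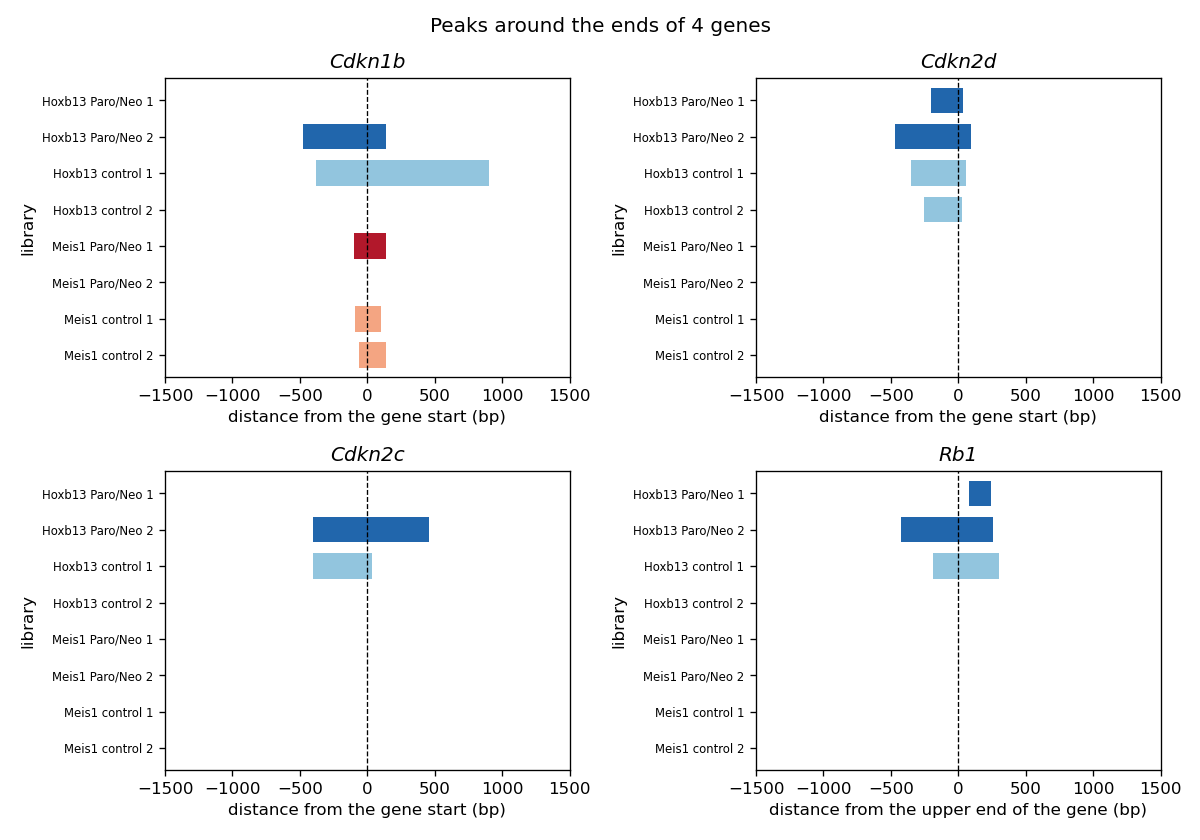
Peaks (bars, by library and coloured by group) within 1.5 kb of the start of Cdkn1b, Cdkn2d and Cdkn2c in the direction of transcription, and of the upper end of Rb1 in coordinate order, in bp. Of these 4 places, Meis1 peaks lie only at the start of Cdkn1b, and the 4 Hoxb13 bars at Cdkn2d share 229 bp.

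Cdkn2c (chromosome 4, 109660876 to 109666756) held its strongest Hoxb13 peaks at the outer of its 2 annotated starts. Paro/Neo replicate 2 had a peak of 861 bp there (109666302 to 109667162, fold 4.40), which ranked 640 of 16963, the best rank of any member peak in that list. Control replicate 1 had a peak of 433 bp (109666725 to 109667157, fold 4.23, rank 414 of 5202). The short lists, Paro/Neo replicate 1 and control replicate 2, had none, with nearest peaks 380289 and 380256 bp away. A weak Hoxb13 peak of Paro/Neo replicate 2 (109657158 to 109657669, rank 15110 of 16963) lay 3.21 kb below the gene within the noncoding RNA gene 9630013D21Rik. Meis1 peaks near Cdkn2c lay 69.1 kb away inside Faf1, in both control libraries, at rank 702 of 3529 and 2908 of 3176. In the Paro/Neo libraries the nearest Meis1 peaks lay 200162 and 200132 bp away.

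Cdkn2a (p16 and the alternative product p19Arf, chromosome 4, 89274473 to 89294619) and Cdkn2b (p15, 89306289 to 89311032) are neighbours and held no peak within 100 kb in any of the 8 libraries. Of all Hoxb13 peaks the nearest belonged to Paro/Neo replicate 2 and lay 137 kb from Cdkn2a and 169 kb from Cdkn2b. In that list 78.2% of genes had a peak at the same distance as Cdkn2a or nearer, and in the other 7 libraries 85.2 to 97.1% did. The 2 genes therefore share 1 stretch of the genome without peaks and do not count as separate cases.

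**Figure D3:**
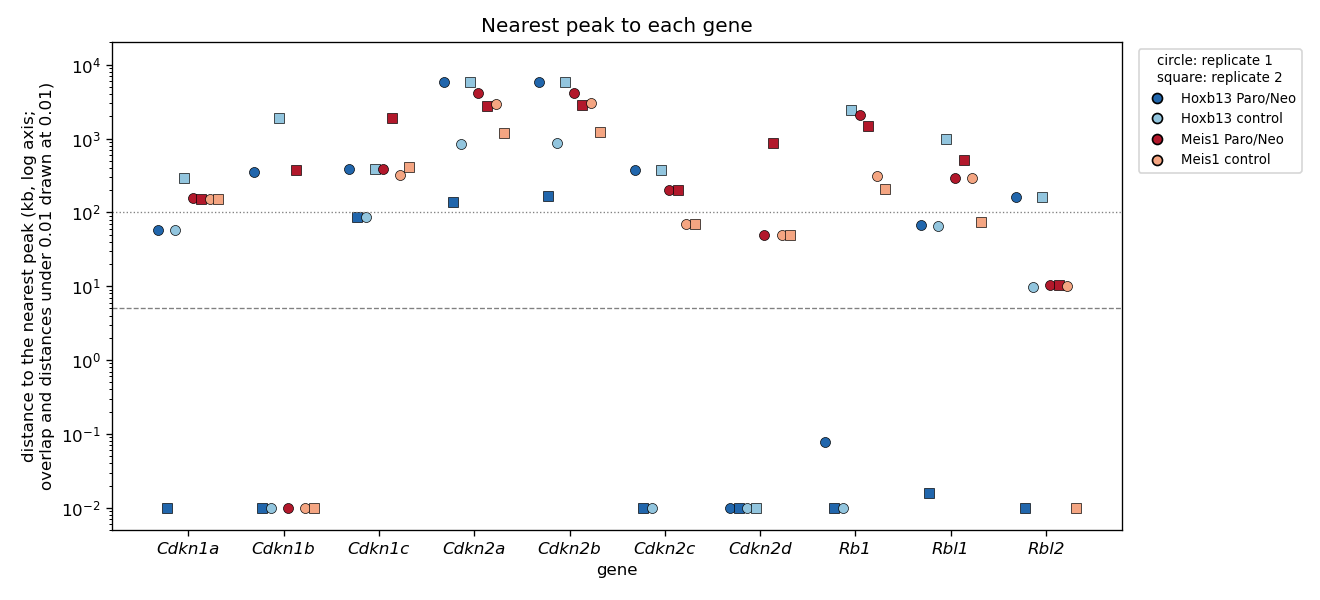
Distance from each gene to the nearest peak of each library (kb, log axis; overlap drawn near the foot of the axis), coloured by group, with circles for replicate 1 and squares for replicate 2. Dashed and dotted lines mark 5 and 100 kb. Every point of Cdkn2a and Cdkn2b lies above 100 kb, and 3 Meis1 points of Rbl2 lie at 10.2 to 10.3 kb with the fourth at overlap.

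Among the pocket protein genes, Rb1 had Hoxb13 peaks in 3 libraries (chromosome 14, 73192858 to 73325951). They met at the upper end of the gene, with a peak of 164 bp in Paro/Neo replicate 1 (73326030 to 73326193, fold 4.00, rank 181 of 821) and one of 684 bp in Paro/Neo replicate 2 (73325525 to 73326208, fold 3.68, rank 2477 of 16963). Control replicate 1 had a peak of 490 bp (73325766 to 73326255, fold 3.10, rank 3621 of 5202), and the nearest peak of control replicate 2 lay 2460864 bp away. The 3 peaks shared 164 bp, the whole of the smallest. Within the gene, a region that overlaps Lpar6, a receptor gene nested in Rb1, was called in Paro/Neo replicate 2 (73240115 to 73240418, rank 13422 of 16963) and control replicate 1 (73239529 to 73240685, rank 2937 of 5202). A further peak of Paro/Neo replicate 2 (73241864 to 73242472, rank 13195 of 16963) followed it. Meis1 peaks came no nearer to Rb1 than 209 kb. The 3 of 4 Hoxb13 against 0 of 4 Meis1 libraries gave an exact Fisher p of 0.143, and the 2 of 2 Paro/Neo against 1 of 2 control libraries gave an exact p of 1.

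Rbl1 (p107, chromosome 2, 157145893 to 157204534) held 1 peak, of Hoxb13 in Paro/Neo replicate 2. It lay 16 bp outside the gene, before its start (157204550 to 157204723, fold 3.49, rank 3751 of 16963). In the other Hoxb13 libraries the nearest peaks lay 66.4 kb away in Paro/Neo replicate 1, and 66.3 kb and 999775 bp away in control replicates 1 and 2. The Meis1 peak of control replicate 2 at 74.3 kb was the single Meis1 peak within 100 kb.

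Rbl2 (p130, the pocket protein that prevails in resting cells, chromosome 8, 91070057 to 91123844) held 1 Hoxb13 peak across its start in Paro/Neo replicate 2 (91069945 to 91070167, fold 2.66, rank 15983 of 16963). It also held 1 Meis1 peak, in control replicate 2 (91070561 to 91070763, fold 3.79, rank 2711 of 3176). Both were weak within their lists. The stronger peaks lay just outside the window, 9.72 to 10.3 kb beyond the upper end of Rbl2. They lay inside its neighbour Aktip, where the merged region covers a promoter of that gene. Meis1 peaks there were called in all 4 libraries, at rank 1144 of 1541 and 604 of 1025 in Paro/Neo and at rank 1294 of 3529 and 601 of 3176 in control. Hoxb13 peaks covered the place in Paro/Neo replicate 2 (rank 9842 of 16963) and control replicate 1 (rank 2312 of 5202), and the 6 peaks shared 191 bp (91134143 to 91134333). Between 3.36 and 10.1% of all genes had a Meis1 peak at this distance or nearer in both Paro/Neo libraries and control replicate 1. A window of 10 kb takes in the Hoxb13 peaks, and none of the Meis1 peaks at this place. The region lies inside Aktip and not inside Rbl2.

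A like case stood 50.1 kb below Cdkn2d, within Keap1, which encodes an oxidative stress sensor. Meis1 peaks were called there in Paro/Neo replicate 1 (21238114 to 21238334, rank 793 of 1541) and in control replicates 1 and 2 (rank 3074 of 3529 and 1259 of 3176). These are the same 3 libraries as at Cdkn1b. Hoxb13 peaks of Paro/Neo replicate 2 (21237124 to 21239329) and control replicate 1 (21238601 to 21239264) lay in the same stretch, and the second did not overlap the Meis1 peaks.

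**Figure D4:**
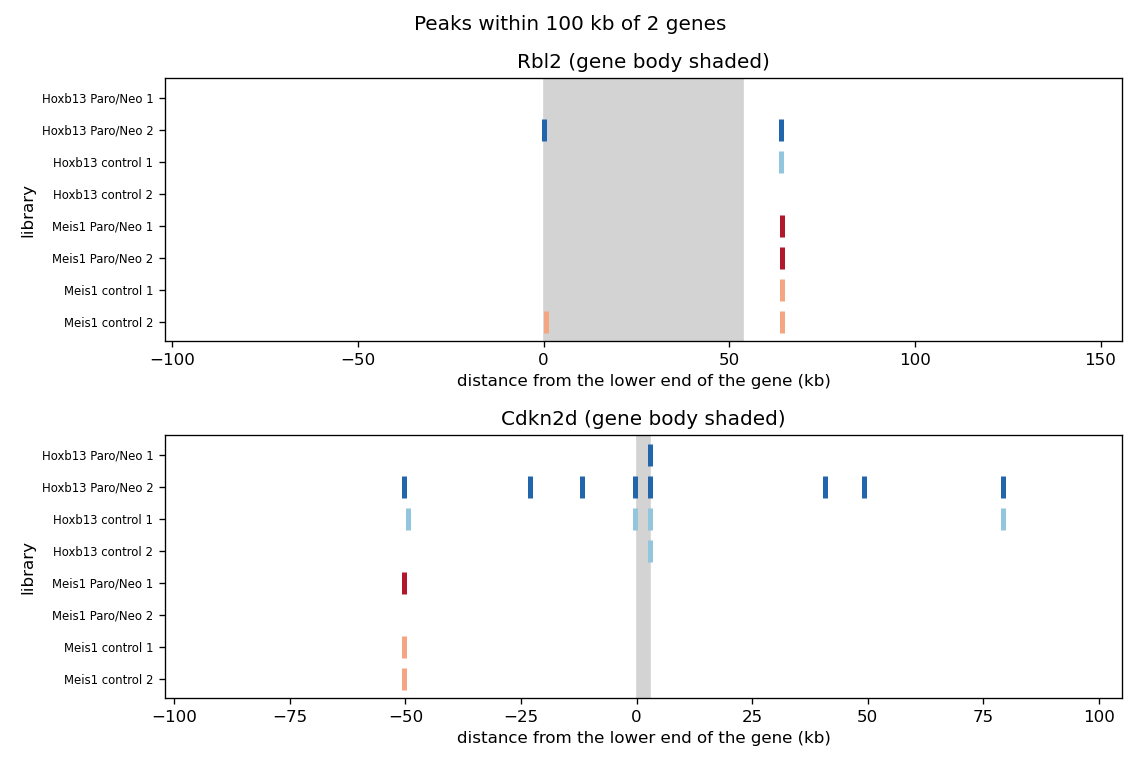
Centres of peaks (ticks, by library and coloured by group) within 100 kb of Rbl2 and Cdkn2d, in kb from the lower end of each gene in coordinate order, with the gene body shaded. All 4 Meis1 libraries have a tick just beyond the upper end of Rbl2, and all 4 Hoxb13 libraries have one at the upper end of Cdkn2d.

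By library, the most members held a peak in the longest Hoxb13 lists. In the Hoxb13 Paro/Neo libraries 2 and 7 of the 10 genes held a peak, where 4.2 and 46.5% of all genes did. In the Hoxb13 control libraries 4 and 1 held one, where 24.2 and 5.79% of all genes did. The mean was 4.5 ± 3.54 genes per Hoxb13 library in Paro/Neo, against 2.5 ± 2.12 in control (± SD, 2 libraries each), a difference of 2 that is smaller than the pooled SD of 2.92. In the Meis1 Paro/Neo libraries 1 and 0 genes held a peak, where 4.07 and 2.83% of all genes did. In the Meis1 control libraries 1 and 2 held one, where 8.59 and 8.21% did. The mean was 0.5 ± 0.707 genes per Meis1 library in Paro/Neo, against 1.5 ± 0.707 in control (± SD, 2 libraries each), and the ranges meet at 1 gene. The difference of −1 became 1 with the second Meis1 replicates exchanged, as the list names would have it, and 0 with lists of equal length. An exact permutation of 2 against 2 libraries cannot give a two-sided p under 0.333.

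**Figure D5:**
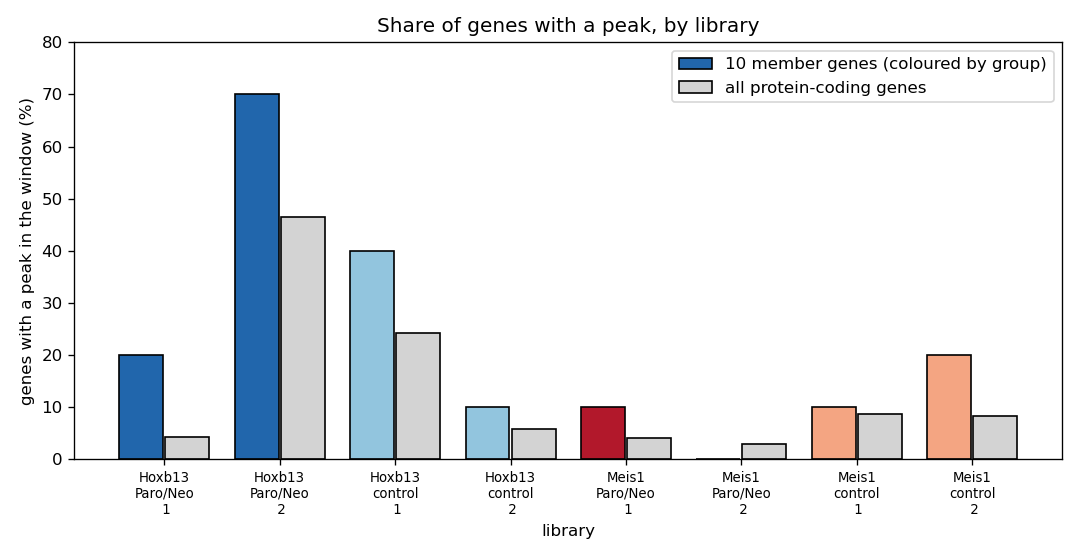
Share of the 10 member genes (coloured by group) and of all protein-coding genes (grey) with a peak in the window, in percent, for each library. Coloured and grey bars are both highest in Hoxb13 Paro/Neo replicate 2 and next in control replicate 1, and each member gene stands for 10%.

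Gene length bears on these counts, since the inhibitor genes are short and the pocket protein genes long. The 7 inhibitor genes held a Hoxb13 peak at 1 and 4 members in Paro/Neo and at 3 and 1 in control. Among the 11888 genes of at most 20147 bp, the length of the longest inhibitor gene, the shares were 3.78 and 38.6% in Paro/Neo and 20.9 and 5.37% in control. The 3 pocket protein genes held one at 1 and 3 members in Paro/Neo and at 1 and 0 in control, where 4.89 and 58.5% and 29.3 and 6.32% of the 4621 genes of at least 53788 bp did. For Meis1, inhibitor genes counted 1 and 0 in Paro/Neo and 1 and 1 in control, against 1.47 and 1.18% and 3.72 and 3.54% of short genes. Pocket protein genes counted 0 and 0 in Paro/Neo and 0 and 1 in control, against 11.6 and 7.6% and 22.0 and 21.3% of long genes.

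No member showed a clean split by treatment. Such a split was rare among all genes as well, so that 0 of 10 does not set the members apart. For Hoxb13, 0 of 10 genes had a peak in both Paro/Neo and neither control library, as did 0.132% of all genes, and 0 of 10 had the reverse, as did 0.00457%. For Meis1, 0 of 10 had a peak in both Paro/Neo and neither control library, as did 0.0183% of all genes, and 0 of 10 had the reverse, as did 2.08%. Over all genes, Fisher's exact test of Hoxb13 against Meis1 gave an unadjusted p under 0.05 at 488 genes and no adjusted p under 0.05. The tests of Paro/Neo against control gave none below 0.333 for either antibody.

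The pattern of calls over the 8 libraries was rare at some members and common at others, which is a description only. Patterns were taken from the members themselves, and their shares depend on the lengths of the lists. A rare pattern therefore gives no support to a call. The Cdkn1b pattern (3 Meis1 and the 2 longest Hoxb13 lists) was shared by 64 genes, itself included, or 0.292% of all. The Cdkn2d pattern (all 4 Hoxb13 libraries and no Meis1 library) was shared by 433 genes or 1.98%, and the Rb1 pattern by 203 or 0.927%. Rbl2, with 1 library of each antibody, shared its pattern with 0.653%. Cdkn2c shared its pattern with 13.3% of genes, Cdkn1a and Rbl1 theirs with 18.7%, and the empty pattern of Cdkn1c, Cdkn2a and Cdkn2b held for 49.9%.

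Peaks were also set against gene starts. Of the 28 peaks in the windows, 21 overlapped the gene body, and 14 overlapped a promoter of the member, taken as 250 bases before to 50 after an annotated start. Promoter entries existed for 8 of the 10 members, all but Cdkn1c and Rb1, so that peaks at Rb1 could not count. In the Hoxb13 Paro/Neo libraries 1 and 6 of these 8 genes had a peak on a promoter, where 1.99 and 33.1% of 17492 genes did. In the Hoxb13 control libraries 3 and 1 had one, where 16.0 and 3.08% did. In the Meis1 libraries the counts were 1 and 0 in Paro/Neo, where 0.44 and 0.423% of genes had one, and 1 and 1 in control, where 1.41 and 1.35% did. Each of these Meis1 calls is Cdkn1b. Widths of the 28 peaks ran from 164 to 1962 bp and folds from 2.66 to 5.65.

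Base composition of the promoters with and without a peak overlapped. The 8 genes have 11 promoters, of which 6 overlapped a peak. GC content ran from 50.7 to 73.3% in the 6 and from 44.0 to 77.0% in the other 5, and the median of 21263 promoters was 56.3%. CpG dinucleotides numbered 14 to 33 in the 6 and 2 to 45 in the other 5, with a median of 13 over all promoters. Both extremes at the top belong to the outer promoter of Cdkn2a, which had no peak.

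Motifs were counted on both strands. The letters TGACAG, a core bound by Meis proteins, stood in 2 of the 11 member promoters, one each of Cdkn2a and Cdkn2c, neither of them under a peak, and in 18.7% of all promoters. The Hoxb13 cores CAATAAA and TCGTAAA stood in 0 of 11, and in 3.85 and 0.574% of all promoters. Of general promoter elements, GGGCGG, a binding site of Sp factors, stood in 9 of 11 against 46.2%, and CCAAT, a box bound by NF-Y, in 4 of 11 against 38.2%. CCAAT can overlap CAATAAA. In the printed stretches, the capitals of Cdkn2d, Cdkn2c and Cdkn1b all hold GGGCGG, and those of Cdkn1b also hold CCAAT. These are matches of letters and not measured binding sites.

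The partners of the members in the pathway were looked at by the same windows. Of the cyclin and CDK genes of G1 and S phase, 2 of 10 held Hoxb13 peaks in at least 2 libraries. Cdk2, the partner of cyclins E and A, held them in Paro/Neo replicate 2 and both control libraries. Of the E2F and DP genes, several of which encode factors that pocket proteins hold, 3 of 10 did. E2f3, an activating E2F, held peaks in both Paro/Neo libraries and control replicate 1. Of 7 genes listed for the DREAM and MuvB complex, 5 did. In DREAM, p107 and p130 repress cell cycle genes. Dyrk1a was counted among the 5 though it encodes a kinase and not a subunit. Lin52, a core subunit, and Dyrk1a, the kinase that phosphorylates it, held Hoxb13 peaks in all 4 libraries, and Dyrk1a also a Meis1 peak in Paro/Neo replicate 2. Of 8 genes for the turnover of the inhibitors, 5 did. Cks1b, the cofactor of Skp2 in p27 degradation, held peaks in Paro/Neo replicate 2 and both control libraries. The share of all genes was 23.6% for at least 2 Hoxb13 libraries and 2.83% for all 4, and no list was tested against either. Gene length, which bears on such counts, was not taken into account for these lists. No gene of these 4 lists held Meis1 peaks in at least 2 libraries. With the members included, 1 of 45 genes of the pathway did, Cdkn1b. This is a smaller share than the 6.47% of all genes, so the count does not set Cdkn1b or the pathway apart.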

How the data were processed

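The submitters' processing notes name mm10, MACS2, HOMER, Bowtie2, Picard 1.127 and FastQC 0.11.5, with no order or options. Whether inputs served the peak caller as control, and which filters it had: not given in the sources used here. Deposited broadPeak lists have no header and hold 1 library each. The deposited fold enrichment is a ratio over local background, averaged over a peak. Each peak also has a deposited −log10 p and −log10 q, and the deposited score equals 10 times the −log10 q, rounded down. Folds are the authors' values and were used only to rank peaks within a list, since another depth or local background would change them. Inputs were not used here.

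Genes and promoters came from RefSeq on GRCm38.p6, in the 21 chromosomes 1 to 19, X and Y. All list genes matched, 1 of them by a synonym. Gene records carry no exons, so exon and intron were not assigned. Windows of 5 kb and an overlap of 1 bp were used genome-wide, and libraries with and without a peak were compared by two-sided Fisher's exact tests with Benjamini-Hochberg adjustment over all genes (Python 3.11.15, SciPy 1.17.1, statsmodels 0.14.6). Overlap counting and the test were tested on simulated data. All 10 members were described whatever their values, and from the other pathway lists a gene was named when at least 3 libraries of an antibody called it. Neighbouring genes were named where a region lay at them, and marker lists were counted. Members and lists were chosen with earlier results of these data known. Alternatives were other windows, a −log10 q of at least 2, lists of equal length, a stricter overlap and leaving out each library. Depth is unknown.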

Additional observations from a re-analysis of the deposited data

How the results depend on the processing

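The 4 Hoxb13 genes and the single Meis1 gene with peaks in at least 2 libraries kept their numbers with windows of the gene body alone or 2 kb, with a −log10 q minimum of 2, with most of each peak required inside the window and with the same merged region required; with 10 kb, Rbl2 became the fifth Hoxb13 gene. Under the alternatives, 67 values moved by less than the pooled SD between replicates (2.92 genes for the Hoxb13 difference, 0.707 for Meis1) or, for counts, by at most 1.5 times, and 10 moved further. The Hoxb13 limit is wide and lets its difference change sign. Among the 67 are also replicate blocks, which cannot move, and stricter settings for a Meis1 count at Cdkn2d that was already 0. The tally is therefore no measure of stability. With lists of equal length, Hoxb13 held 2 genes (Cdkn2c and Cdkn2d), the Meis1 difference between Paro/Neo and control became 0, Cdkn1b had 0 Hoxb13 libraries, and 0 members had a Fisher's exact p under 0.05, since Cdkn2d then had 3 Hoxb13 libraries. With all 4 libraries required, 1 gene remained for Hoxb13 and 0 for Meis1. Leaving out single libraries gave 2 to 4 Hoxb13 genes, with 2 without Paro/Neo replicate 2 or without control replicate 1, and 1 Meis1 gene in every case. It gave 1 to 2 members with a Fisher's exact p under 0.05, the second being Rb1 without Hoxb13 control replicate 2. That was the only Hoxb13 library without a peak at Rb1, so leaving it out fixed this outcome in advance. The Hoxb13 difference ran from −0.5 (without Paro/Neo replicate 2) to 4.5 (without Paro/Neo replicate 1), and the Meis1 difference from −1.5 (without Paro/Neo or control replicate 1) to −0.5 (without Paro/Neo or control replicate 2). The Hoxb13 difference was 1 with gene bodies alone, 1.5 with 10 kb and 0 with lists of equal length. With the second Meis1 replicates exchanged, as the letters in the list names would have it, the difference was 1 in place of −1, and Cdkn1b had Meis1 calls in 2 of 2 Paro/Neo and 1 of 2 control libraries. The causes were not tested. Shares of all genes were not computed for lists of equal length or with a library left out. Deviations of same-numbered libraries over all genes had a correlation of −0.431 for Hoxb13 and −0.019 for Meis1. List lengths enter this correlation, so it cannot decide whether the numbers pair the libraries. With 2 replicates in each group a replicate block, straight or crossed, cannot change the mean difference. That difference was 2 for Hoxb13 and −1 for Meis1, so that the block tests nothing here. The crossed block and the alternatives for Fisher's test were chosen after seeing the data. Unknown depth limits every absent peak.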
